A study of Homo sapiens with 5 samples.

Results

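The large satellite blocks of human chromosomes 1, 9 and 16 were described through the H3K9me3 peaks that lie in them. A peak was taken as a member where its midpoint fell in chr1:121571889-143299517, chr9:43139881-60832661 or chr16:34000000-47000000 on GRCh38, and no peak value entered that choice. In all, 1073 of the 12650 peaks of the KD list were members, against 831 of the 24665 peaks of the EV list. A remaining list, whose name carries no genotype, had 911 members among 14362 peaks.

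Chromatin immunoprecipitation followed by sequencing (ChIP-seq) for H3K9me3, histone H3 trimethylated at lysine 9, was done in HEK293T, a human embryonic kidney line that carries the SV40 large T antigen. The labels name 5 samples, each a single library: H3K9me3 in KD cells, H3K9me3 in EV cells, H3K9me3 in WT cells, and inputs without antibody from EV and WT cells. The series ties KD to KCNQ1OT1_K, and KCNQ1OT1 is a long non-coding RNA of the imprinted KCNQ1 locus. EV reads as empty vector and WT as wild type. The sources used here do not say what the suffix K denotes, how KD was made, or whether a clone or a population was used. The same line, culture, crosslinking and antibody apply to all groups, and no input was listed for KD. The list without a genotype was not assigned to WT, is also called the unassigned list here, and enters no comparison between groups.

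Human chromosomes 1, 9 and 16 carry the largest blocks of constitutive heterochromatin among the autosomes. They are made of tandem classical satellite repeats beside the centromere, whose own arrays consist of alpha satellite. H3K9me3 is placed there by the SUV39H enzymes and bound by HP1 proteins, and it is a textbook mark of pericentromeric chromatin. In GRCh38 the centromeric arrays are modelled sequence, and much of the neighbouring satellite is an unsequenced gap.

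The name of the blocks could be checked only by position, since neither repeat annotation nor genome sequence was used here. Most of each window held no peak in any of the 3 lists. How much of that is unsequenced gap was not checked, and no peak can be called in a gap. Lack of peaks there is therefore not read as lack of H3K9me3. On chromosome 1 the peak-free stretch was chr1:125183878-143184638, 18.0 Mb or 82.8% of the window. On chromosome 9 it was chr9:45516902-60519742, 15.0 Mb or 84.8%. On chromosome 16 it was chr16:38280404-46380704, 8.10 Mb or 62.3%. The next longest peak-free stretches were 58953 bp, 72560 bp and 198770 bp on chromosomes 1, 9 and 16. The members therefore lie on the centromeric side and at the far edge of each window, and the values below describe those parts. Whether those parts are classical satellite or alpha satellite of the centromere was not checked. Windows on chromosomes 1 and 9 held no annotated gene, while the window on chromosome 16 held 102.

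The sequences that can be shown come from the gene-holding flanks of the chromosome 16 window, where 29 of the 35116 promoters of the RefSeq table (GRCh38.p14) lie. A promoter here is 250 bases before to 50 bases after a gene's start, and 11 of the 29 were under a peak of at least 1 list. These include overlapping promoters of the same gene, LOC105371204, at chr16:35506360-35506659 and chr16:35506361-35506660. The share of all 35116 promoters under a peak was not computed, so nothing is read from that count. The following are printed because they are the only promoter under a KD peak (LOC107984902), the promoter over which an EV peak ran where KD had a gap (LINC00273), and a promoter sequence present in 2 identical copies (LOC124903767 and LOC162137). Each is written 5′ to 3′ on the gene's strand, with the bases under a peak of the named list in capitals.
LOC107984902, chr16:35023001-35023300, plus strand, KD peak: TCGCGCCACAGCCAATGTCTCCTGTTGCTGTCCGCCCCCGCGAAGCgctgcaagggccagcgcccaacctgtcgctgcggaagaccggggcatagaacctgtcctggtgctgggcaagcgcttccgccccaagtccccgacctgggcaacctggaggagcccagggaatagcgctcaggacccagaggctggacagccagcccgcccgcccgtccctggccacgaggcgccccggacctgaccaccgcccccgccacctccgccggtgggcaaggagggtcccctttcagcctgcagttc
LINC00273, chr16:34159924-34160223, minus strand, EV peak: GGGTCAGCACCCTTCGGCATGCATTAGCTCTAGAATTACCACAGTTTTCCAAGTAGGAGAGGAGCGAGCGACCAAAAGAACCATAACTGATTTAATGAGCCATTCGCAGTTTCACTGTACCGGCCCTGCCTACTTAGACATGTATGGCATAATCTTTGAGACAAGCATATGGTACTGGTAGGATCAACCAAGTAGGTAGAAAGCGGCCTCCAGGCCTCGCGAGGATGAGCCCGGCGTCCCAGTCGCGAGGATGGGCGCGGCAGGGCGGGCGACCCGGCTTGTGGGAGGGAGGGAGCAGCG
LOC124903767, chr16:34389772-34390071, minus strand, list without genotype: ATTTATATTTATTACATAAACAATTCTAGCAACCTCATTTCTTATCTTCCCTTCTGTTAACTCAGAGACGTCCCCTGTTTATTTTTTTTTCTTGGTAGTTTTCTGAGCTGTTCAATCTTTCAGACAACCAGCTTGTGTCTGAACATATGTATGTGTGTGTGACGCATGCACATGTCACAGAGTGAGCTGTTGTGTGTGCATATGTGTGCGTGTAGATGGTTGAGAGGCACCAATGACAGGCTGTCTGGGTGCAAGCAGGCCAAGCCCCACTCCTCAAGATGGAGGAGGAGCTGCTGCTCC
LOC162137 at chr16:35021757-35022056 on the plus strand has the same letters as LOC124903767 at 300 of 300 positions. Those promoters lie 0.632 Mb apart, and each was under a peak of the list without a genotype and of neither other list. In the LOC107984902 promoter the KD peak covered the first 46 bases, and the nearest EV peak ended 19 bp short of it. The EV peak over LINC00273 covered all 300 bases, while the nearest KD peak lay 299 bp away and the nearest of the unassigned list 506 bp away. GC content was 70.7% in the LOC107984902 promoter, 56% in that of LINC00273 and 44.3% in the shared copy, beside a median of 58.7% over the table.

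The blocks held more peaks in KD than in EV, but narrower ones that covered less sequence. Member peaks numbered 1073 in KD and 831 in EV, a ratio of 1.29 (exact 95% interval 1.18 to 1.42). The interval covers counting error over peaks only, because each group is 1 library and no difference between conditions can be tested. Covered length was 3.53 Mb in KD and 6.10 Mb in EV, a ratio of 0.579. The count depends on the threshold of the lists. With a −log10 q of at least 2 the number ratio was 1.06, and with at least 5 it was 0.490, with 214 KD and 437 EV members. Covered length was lower in KD at each of these thresholds. In the list without a genotype, 911 members covered 4.65 Mb.

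Outside the blocks the KD list was the shorter one. The number ratio there was 0.486 (0.475 to 0.497), and it was 0.342 (0.317 to 0.368) on the rest of chromosomes 1, 9 and 16. The closest match to the blocks was a set of 23 other autosomal stretches of at least 2 Mb with no annotated gene, which take in other centromeres, at 0.897 (0.862 to 0.933). Covered length gave 0.579 in the blocks, 0.452 in the other gene-free stretches, 0.297 on the rest of the same chromosomes and 0.385 over everything outside the blocks. At the deposited threshold the covered ratio was thus higher in the blocks than in the other gene-free stretches. At a −log10 q of at least 5 that order turned, with 0.158 in the blocks and 0.206 in the other gene-free stretches, beside 0.278 over everything outside the blocks. Depth is unknown for all lists, and a library of lower depth gives fewer and narrower peaks. Its part in these ratios was not tested.

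As a share of each list, the blocks made up 8.48% of peaks in KD (8.0 to 8.98) and 3.37% in EV (3.15 to 3.60). The share was 6.34% (5.95 to 6.75) in the list without a genotype. By covered length the shares were closer, at 17.1% in KD and 12.1% in EV, with 15.6% in the list without a genotype. In every list the blocks thus held a larger share of the covered sequence than of the peaks.

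Peak width set the lists apart. The median member was 1909 bp wide in KD, 3697 bp in EV and 2420 bp in the list without a genotype. Peaks of at least 5 kb were 171 of 1073 in KD (15.9%) and 322 of 831 in EV (38.7%). They were 245 of 911 (26.9%) in the list without a genotype. Over all peaks of each list, such peaks made up 4.20% in KD, 7.29% in EV and 7.85% in the list without a genotype. In the other gene-free stretches they made up 6.21%, 23.3% and 13.4%, with median widths of 1514.5, 2528 and 1761.5 bp. The order of the lists in those stretches was thus that of the blocks. The fold enrichment and −log10 p of a peak are the authors' values over their caller's background, and each list has its own scale. Where values of several lists are given for a site, no difference is read from them. In KD, median fold was 3.69 in the blocks and 3.68 outside them, and median −log10 p was 5.32 in the blocks and 4.94 outside. In EV, median fold was 3.57 in the blocks and 3.11 outside, and median −log10 p was 7.58 in the blocks and 4.62 outside. In the unassigned list, median fold was 3.46 in the blocks and 3.37 outside, and median −log10 p was 5.53 in the blocks and 4.18 outside. Within each list the members were thus above the rest by the median of these values, with median fold in KD nearly equal. In the other gene-free stretches median fold was 3.66 in KD, 3.42 in EV and 3.45 in the unassigned list. Median −log10 p there was 4.92 in KD, 5.86 in EV and 4.92 in the unassigned list. Beside those stretches, median fold of the members was nearly equal in KD and in the unassigned list.

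**Figure D1:**
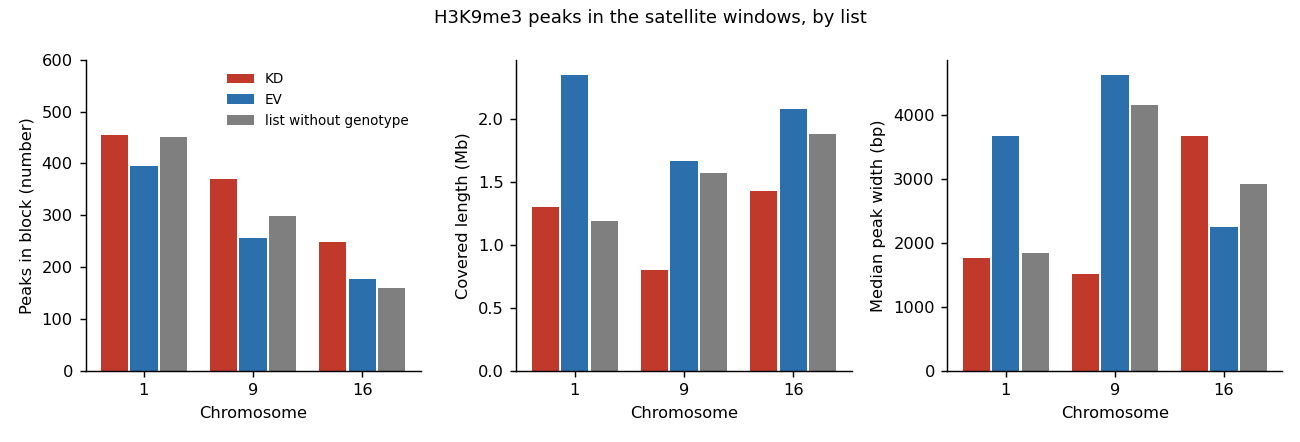
Bars give, for each window, the number of member peaks, their covered length in Mb and their median width in bp, for KD, EV and the list without a genotype (1 library or list each, so no error bars). KD had more peaks than EV on each chromosome and less covered length (1.30 against 2.35 Mb on chromosome 1), while median width was larger in KD only on chromosome 16.

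The chromosomes differed in width. Chromosome 1 held 454 KD peaks over 1.30 Mb and 396 EV peaks over 2.35 Mb, with median widths of 1759.5 bp in KD and 3674 bp in EV. Chromosome 9 held 370 KD peaks over 0.802 Mb and 257 EV peaks over 1.67 Mb, with 1507 bp in KD and 4633 bp in EV. Chromosome 16 held 249 KD peaks over 1.43 Mb and 178 EV peaks over 2.08 Mb, with 3672 bp in KD and 2242.5 bp in EV. Chromosome 9 had the lowest covered ratio, 0.481, against 0.552 on chromosome 1 and 0.688 on chromosome 16. Number ratios were 1.15 (1.00 to 1.32) on chromosome 1, 1.44 (1.22 to 1.69) on chromosome 9 and 1.40 (1.15 to 1.71) on chromosome 16, so the interval of chromosome 1 reached equality.

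The opposite order of median widths on chromosome 16 came with its composition, which mixes gene-free sequence and gene-holding flanks. In the gene-free part, KD had 214 peaks and EV had 82, with median widths of 4590.5 bp in KD and 13902.5 bp in EV. The number ratio was 2.61 (2.01 to 3.41), and covered length was 1.37 Mb in KD and 1.88 Mb in EV. In the flanks, KD had 35 peaks and EV had 96, a ratio of 0.365 (0.240 to 0.542), over 0.0557 Mb in KD and 0.192 Mb in EV. Within the gene-free part the order of widths was therefore that of the other chromosomes, and the flanks had a number ratio like the 0.342 of the rest of chromosomes 1, 9 and 16.

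**Figure D2:**
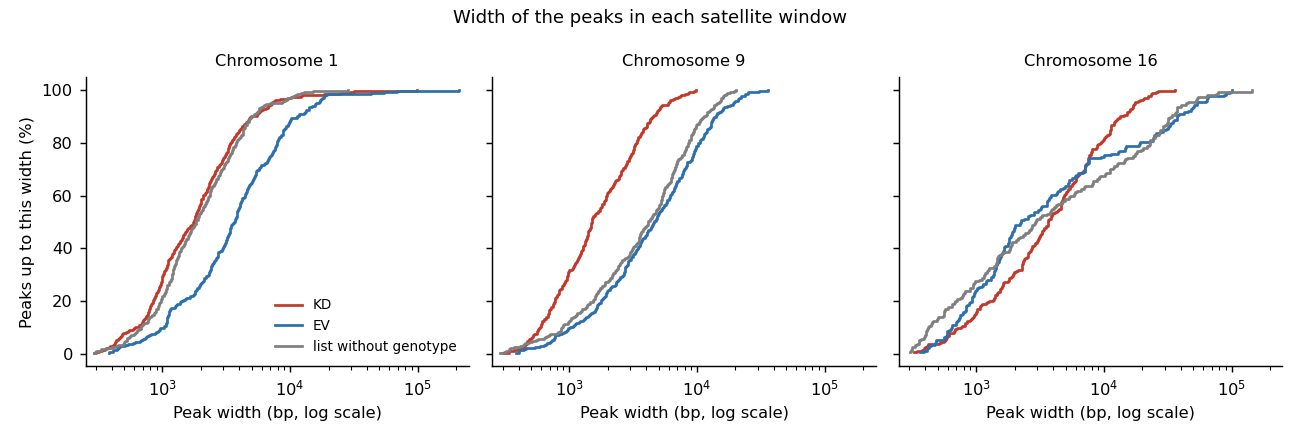
Each line gives the percentage of member peaks up to a given width (bp, log scale) in KD, EV and the list without a genotype, for the windows of chromosomes 1, 9 and 16. KD lies left of EV on chromosomes 1 and 9 (medians 1507 bp in KD and 4633 bp in EV on chromosome 9), and on chromosome 16 the EV line has narrow peaks from the flanks and very wide ones from the gene-free part.

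By covered length, the list without a genotype was close to KD on chromosome 1 and closer to EV on chromosomes 9 and 16. On chromosome 1 it covered 1.19 Mb, beside 1.30 Mb in KD and 2.35 Mb in EV, and its median width of 1837.5 bp was near the 1759.5 bp of KD. On chromosome 9 it covered 1.57 Mb, beside 0.802 Mb in KD and 1.67 Mb in EV, with a median of 4159 bp, near the 4633 bp of EV. On chromosome 16 it covered 1.88 Mb, beside 1.43 Mb in KD and 2.08 Mb in EV. Its median width there, 2920 bp, lay between the 3672 bp of KD and the 2242.5 bp of EV. The likeness is a description of 1 list, and its difference between chromosomes was not tested.

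KD peaks in the blocks fell almost wholly on sequence that EV peaks also marked. Of 1073 KD members, 1055 (98.3%, 97.4 to 99.0) were overlapped by an EV peak by at least 1 bp, beside 87.7% over all KD peaks. In the other direction, 611 of 831 EV members (73.5%, 70.4 to 76.5) were overlapped by a KD peak, beside 37.7% over all EV peaks. In bases, 97.6% of KD member sequence was under EV peaks and 56.5% of EV member sequence was under KD peaks. The other gene-free stretches gave 97.0% for KD peaks and 63.6% (62.3 to 64.9) for EV peaks. Wide peaks meet a partner more readily, so these shares depend on width too. Bases under both lists made up 55.7% of bases under either in the blocks, 41.6% in the other gene-free stretches and 32.8% over all sequence outside the blocks.

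By chromosome, the EV share overlapped by KD was 307 of 396 (77.5%) on chromosome 1, 207 of 257 (80.5%) on chromosome 9 and 97 of 178 (54.5%) on chromosome 16. Splitting chromosome 16 gave 68 of 82 (82.9%) in its gene-free part and 29 of 96 (30.2%) in its flanks. The gene-free sequence of all 3 chromosomes thus gave shares between 77.5% and 82.9%, and the flanks a share below the 37.7% of all EV peaks.

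Overlap with the list without a genotype was above each list's background, in the blocks and in the other gene-free stretches. It met 888 of 1073 KD members (82.8%), beside 45.5% over all KD peaks, and 599 of 831 EV members (72.1%), beside 24.7% over all EV peaks. Of its own 911 members, 694 (76.2%) met a KD peak, beside 35.6% over that list, and 825 (90.6%) met an EV peak, beside 50.2%. In the other gene-free stretches the unassigned list met 77.2% of KD peaks and 70.0% of EV peaks, while 54.1% of its own peaks met KD and 75.8% met EV. The blocks were thus near those stretches for KD and EV peaks, and higher for the unassigned list's own peaks.

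The EV members that KD did not overlap were mostly weaker and narrower than the rest. The 611 overlapped EV members had a median width of 5084 bp and a median −log10 p of 8.96, against 1171 bp and 4.19 for the 220 others. In EV members with −log10 p below 4, 14.9% of 101 were overlapped. The share was 48.2% of 193 between 4 and 6, 90.9% of 286 between 6 and 10, 96.8% of 189 between 10 and 20, and 96.8% of 62 at 20 and above. Other gene-free stretches gave 15.5, 51.7, 87.1, 98.1 and 99.5% in the same bins, and all sequence outside the blocks gave 8.44, 29.1, 61.6, 85.3 and 99.0%. At a given strength of the EV peak, the blocks were thus close to the other gene-free stretches.

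**Figure D3:**
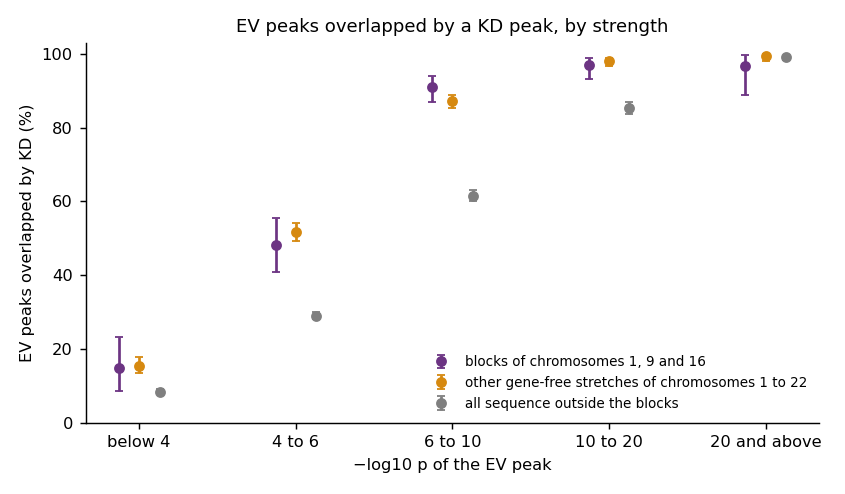
Points give the percentage of EV peaks overlapped by a KD peak in bins of the EV peak's −log10 p, in the blocks, in other gene-free stretches and outside the blocks, with exact 95% intervals over peaks. The blocks and the other gene-free stretches rise together, from 14.9% and 15.5% below 4 to 96.8% and 98.1% between 10 and 20, and peaks outside lie lower up to 20.

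The strongest EV member without a KD peak on chromosome 1 was chr1:125162196-125162578, with −log10 p of 43.6 and a fold of 2.45. On chromosome 9 it was chr9:44767884-44771365 with −log10 p of 14.4, and on chromosome 16 chr16:46664774-46666335, which lies in VPS35, with 11.8. The 18 KD members without an EV peak had a median width of 718.5 bp and a median −log10 p of 3.94, against 1936 bp and 5.36 for the others. Their strongest were chr1:122621523-122622683 with −log10 p of 5.18, chr9:45411128-45411602 with 4.07 and chr16:46380732-46381493 with 8.95.

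Single EV peaks were commonly met by several KD peaks. In the blocks 225 of 831 EV members (27.1%, 24.1 to 30.2) were overlapped by 2 or more KD peaks, with a maximum of 14, beside 4.32% over all EV peaks and 14.1% in the other gene-free stretches. The reverse, a KD member over 2 or more EV peaks, occurred in 9 of 1073 (0.839%). That share was 0.474% over all KD peaks and 0.818% in the other gene-free stretches. The 225 EV peaks held 678 KD peaks, had a median width of 11672 bp, and 61.9% of their bases were under KD. Wholly inside 1 EV peak lay 867 of the 1073 KD members (80.8%, 78.3 to 83.1), and wholly inside 1 KD peak lay 27 of the 831 EV members (3.25%). In the other gene-free stretches these shares were 72.9% and 2.75%, and over all sequence outside the blocks they were 57.6% and 2.71%. Most KD members thus lay within EV peaks, as did most KD peaks of the other gene-free stretches. Few KD members lay on sequence of their own.

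The number of KD peaks an EV peak held followed its width, at means close to those elsewhere. EV peaks of 10 to 20 kb held a mean of 2.49 KD peaks in the blocks, 2.37 in the other gene-free stretches and 2.30 outside the blocks. EV peaks of 20 kb or more held 4.78, 4.69 and 4.41. The covered part of these widest peaks differed more. KD peaks covered 72.8% of the bases of the 51 in the blocks, 52.7% of the 118 in the other gene-free stretches and 56.1% of the 132 outside the blocks. By chromosome the value was 82.5% over 6 peaks on chromosome 1, 40.1% over 10 on chromosome 9 and 75.1% over 35 on chromosome 16. On chromosome 1 the widest of the 6 peaks, of 210153 bp, was covered over 96.0%, and the next 2 over 88.6% and 56.5%. These values are weighted by bases, so that peak counts most on chromosome 1. By such pooled values, the higher coverage was seen on chromosomes 1 and 16 and not on chromosome 9.

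**Figure D4:**
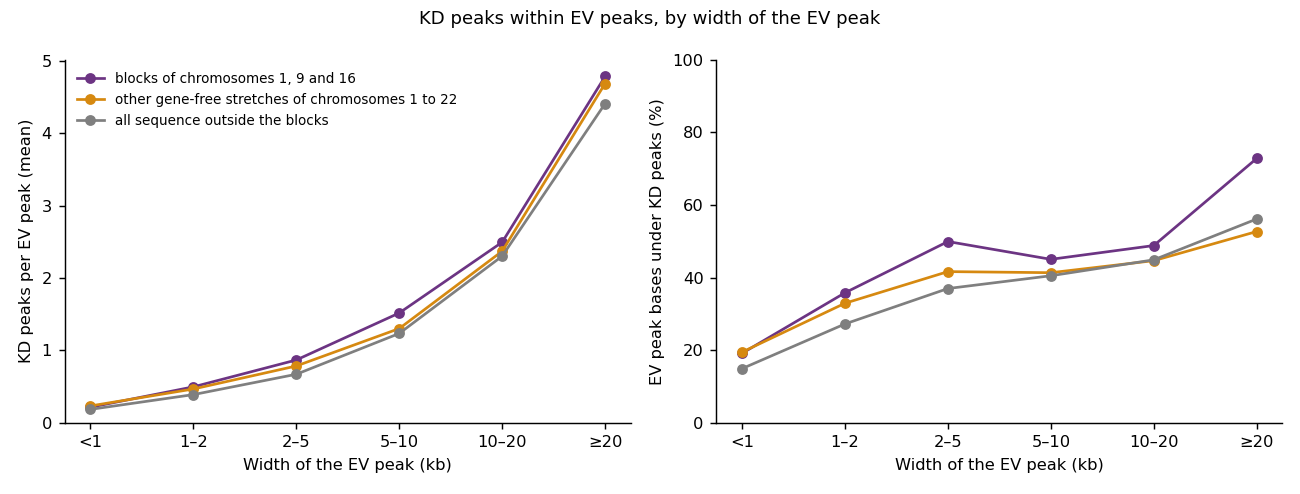
Lines give, by width of the EV peak in kb, the mean number of KD peaks that overlap it and the percentage of its bases under KD peaks, in the blocks, in other gene-free stretches and outside the blocks. The number of KD peaks is alike in all 3 sets (4.78, 4.69 and 4.41 at 20 kb and above), while the covered percentage at that width is 72.8% in the blocks against 52.7% in the other gene-free stretches.

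Along the centromeric side of each window the peaks formed a dense field, called the left stretch here. In KD it held 444 of 454 members on chromosome 1, 349 of 370 on chromosome 9 and 209 of 249 on chromosome 16. Whether the left stretch is alpha satellite or classical satellite could not be told without repeat annotation. It ran over chr1:121610396-125183877 (3.57 Mb), chr9:43164040-45516901 (2.35 Mb) and chr16:36109241-38280403 (2.17 Mb, from the first member beyond the last gene). On chromosome 1 peaks covered 34.7% of it in KD and 63.9% in EV, with 31.6% in the list without a genotype. On chromosome 9 the values were 30.6% in KD, 65.2% in EV and 62.5% in that list. On chromosome 16 they were 62.6% in KD, 85.6% in EV and 81.2% in that list. Peak density per Mb was 124 in KD and 108 in EV on chromosome 1, 148 in KD and 102 in EV on chromosome 9, and 96.3 in KD and 34.1 in EV on chromosome 16. The chromosome 16 stretch was the most fully covered in every list.

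In bins of 100 kb, coverage in KD was below that in EV in 35 of 35 bins on chromosome 1, 23 of 23 on chromosome 9 and 21 of 21 on chromosome 16. In bins of 10 kb it was lower in 319 of 357, 223 of 235 and 177 of 217 bins, and higher in 8, 2 and 8. The lower coverage was thus spread along each stretch. The ups and downs followed each other, with a Pearson correlation between KD and EV of 0.632 on chromosome 1, 0.575 on chromosome 9 and 0.742 on chromosome 16 over those 357, 235 and 217 bins. These are descriptions, since neighbouring bins share peaks and each list is 1 library. On chromosome 1 coverage was highest around 0.75 Mb from the start of the stretch, at 95.4% in KD and 100% in EV, beside 58.2% in the list without a genotype. A further high lay at 3.25 Mb, at 79.3% in KD and 96.0% in EV, beside 76.0% in that list.

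**Figure D5:**
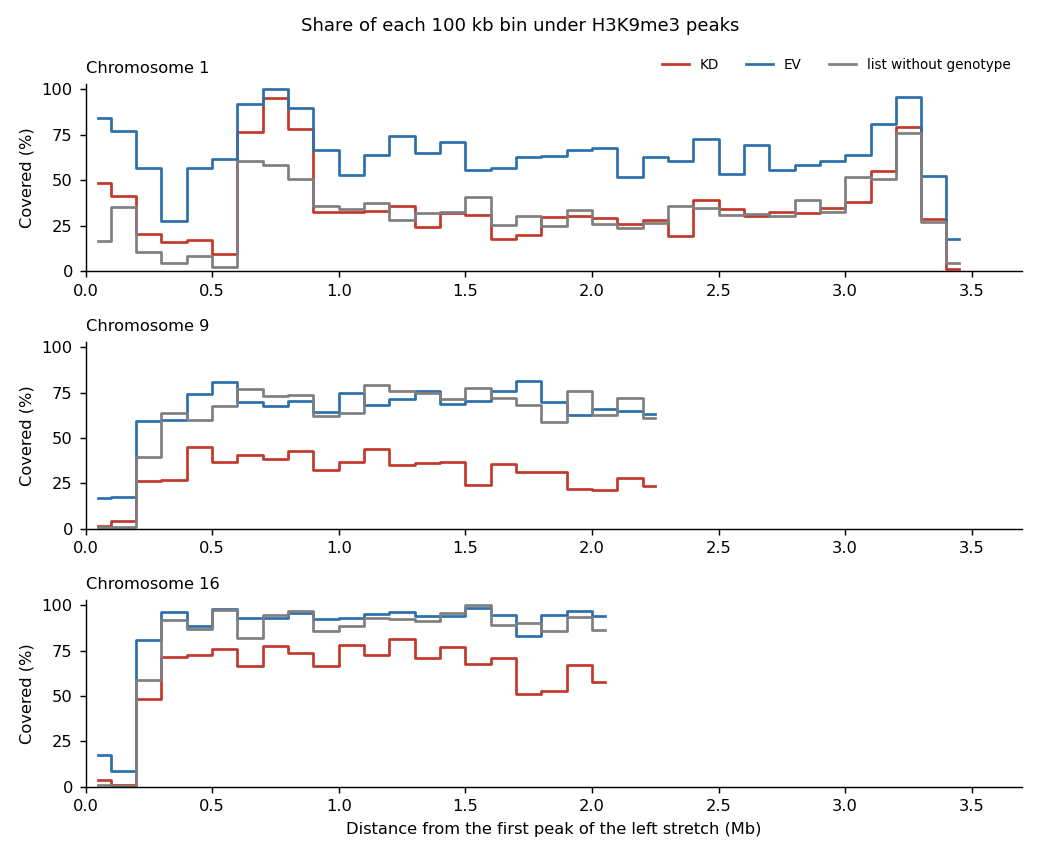
Lines give the percentage of each 100 kb bin under peaks, against the distance in Mb from the first peak of the left stretch, for KD, EV and the list without a genotype on chromosomes 1, 9 and 16. KD lies below EV in all 35, 23 and 21 bins, and the list without a genotype runs near KD on most of chromosome 1 and near EV on chromosomes 9 and 16.

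On the far side of the peak-free stretch each chromosome held a small second group of peaks. On chromosome 1, chr1:143184639-143275892 was covered to 66.3% by 10 KD peaks and to 73.8% by 9 EV peaks. On chromosome 9, chr9:60519743-60688305 was covered to 48.7% by 21 KD peaks and to 79.1% by 16 EV peaks. On chromosome 16, the gene-free chr16:46380705-46469336 was covered to 14.7% by 5 KD peaks and to 27.2% by 8 EV peaks. In 1 Mb bins the chromosome 1 edge had the highest covered ratio of KD to EV of the windows, 0.899, against 0.338 to 0.608 in the bins of its left stretch.

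The peaks with the highest −log10 p on all chromosomes lay at the margins of the chromosome 1 peak-free stretch. In KD it was chr1:143212168-143223028, 10861 bp with −log10 p of 728 and a fold of 4.26. In EV it was chr1:143212154-143223230, 11077 bp with 2204 and a fold of 5.34. The list without a genotype had its highest value, 463, at chr1:125178200-125183877 on the other margin, where KD had 684 and EV 1337. Its peak at the far margin had 323. KD and EV thus had the far site first and the near site second, and the unassigned list had the near site first.

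Members were frequent among the widest peaks of each list. Of the 100 widest peaks of all chromosomes, 53 in KD, 36 in EV and 40 in the list without a genotype were members, with 42, 29 and 37 of them on chromosome 16. Of the 100 with the highest −log10 p, 16, 14 and 18 were members, and of the 100 with the highest fold, 2, 1 and 4. The blocks' share of all peaks was 8.48% in KD, 3.37% in EV and 6.34% in the unassigned list. Against that, members were over-represented among the widest peaks and, less so, among those of highest −log10 p. Among the peaks of highest fold they were not, and those counts are too small to read further.

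The widest EV peak, chr1:122238076-122448228, spanned 210153 bp. It was overlapped by 6 KD peaks over 96.0% of its bases, among them the widest KD peak, chr1:122272302-122370259 with 97958 bp. The unassigned list divided the same stretch into 37 peaks over 66.5% of its bases. On chromosome 16 the widest EV peak, chr16:37356443-37456869, spanned 100427 bp and was overlapped by 9 KD peaks over 76.8% of its bases. On chromosome 9 the widest EV peak, chr9:60652111-60688277, spanned 36167 bp and was overlapped by 5 KD peaks over 64.0%. The list without a genotype was the least divided at chr16:37565267-37709867, where its single peak of 144601 bp met 17 KD and 3 EV peaks. The same list was thus the most divided at one site and the least divided at another.

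Narrow peaks of high fold were found as well. The highest fold on chromosome 16 was at one site in every list. KD had chr16:34725688-34727500 with a fold of 11.8 and −log10 p of 129. EV had chr16:34725654-34727534 with 16.1 and 414, and the list without a genotype had chr16:34725655-34727561 with 7.22 and 11.2. On chromosome 1 the highest fold in KD was 7.87 at chr1:124411644-124413026, which an EV peak overlapped. The highest in EV was 7.19 at chr1:124444796-124445950, with −log10 p of 14.5, and neither KD nor the unassigned list had a peak there. On chromosome 9 the highest folds were at different sites, 9.45 at chr9:43520131-43522083 in KD and 8.72 at chr9:44764049-44765830 in EV.

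Annotated genes occur only in the chromosome 16 window, on either side of its gene-free sequence. Of its 102 genes, 11 were overlapped by a KD peak (10.8%, 5.51 to 18.5) and 26 by an EV peak (25.5%, 17.4 to 35.1), beside 6.14% and 13.2% of 59675 genes on all chromosomes. The unassigned list overlapped 28 (27.5%, 19.1 to 37.2), beside 4.58%. Both KD and EV peaks overlapped 10 genes, and 64 genes held no peak in any list. Neighbouring and copied genes share reads and peaks, so they are not independent.

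Of 9 protein-coding genes, KD peaks overlapped 1, EV peaks 3 and the list without a genotype 2. GPT2, a mitochondrial alanine transaminase, had KD peak chr16:46893659-46894679 over 2.18% of its length and EV peak chr16:46893337-46894722 over 2.95%. VPS35, a subunit of the retromer that returns cargo from endosomes, had no KD peak and an EV peak over 4.73%. CCNYL1B, a cyclin Y-like gene, had no KD peak, an EV peak over 1.07% and a peak of the list without a genotype over 1.85%. LOC124903767 was covered by the list without a genotype alone. No list had a peak in ORC6, a subunit of the origin recognition complex, MYLK3, a cardiac myosin light chain kinase, DNAJA2, a co-chaperone of HSP70, SHCBP1 or C16orf87. Marking of coding genes in the window was thus sparse in all lists.

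Of 20 non-coding RNA genes, 6 were overlapped by KD peaks, 10 by EV peaks and 12 by the list without a genotype. Of 73 pseudogenes, 4 were overlapped by KD, 13 by EV and 14 by the list without a genotype. The FRG family, here pseudogenes of FRG2 by symbol, had 5 members, with 0 overlapped in KD, 1 in EV and 0 in the list without a genotype. Both TP53TG3 copies were free of KD peaks, and 1 was overlapped in EV. Of 4 LINC genes, KD peaks met 1, EV peaks 2 and the list without a genotype 3. The single ANKRD26P copy held no peak, and the other families on the fixed list had no member here. Further families were counted after their symbols and values were seen. The 18 RNA5SP genes, pseudogenes of 5S ribosomal RNA, were overlapped by 0 KD peaks, with 2 of the genes overlapped in EV and 8 in the unassigned list. Of 3 DUX4L pseudogenes, 1 was overlapped in KD, 0 in EV and 1 in the unassigned list. It was DUX4L45, the only gene of the window with a KD peak and no EV peak, covered over 36.4% in KD. Of 6 RARRES2P copies, 1 was overlapped in EV and 0 in KD. The VN1R, AGGF1P and C2orf69P copies held no peak in any list. LINC00273 was covered over 48.2% by KD and 88.7% by EV, and over 46.4% by the list without a genotype. LOC101929923 was covered over 71.7% by KD and 100% by EV, and LOC110262331 over 21.3% by KD and 100% by EV. Whole coverage in every list was seen at RNA5-8SP2, a copy of the 5.8S ribosomal RNA gene, and at MIR9901.

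MIR9901 lies near LINC00273, and its mature product is shown because it is the only miRNA of the RefSeq table in the windows. It is encoded at chr16:34163601-34163621 on the plus strand, with the seed (bases 2 to 8) in capitals.
hsa-miR-9901: cGGUCGCCgcgguucgccgcc
The KD peak over it was chr16:34161498-34164025, 2528 bp wide with −log10 p of 4.81. The EV peak was chr16:34158742-34164094, 5353 bp wide with 6.87, and it was the same peak that covers the LINC00273 promoter printed above. In KD that stretch was marked by separate peaks, with the promoter in the gap between them. The unassigned list had separate peaks there too, at chr16:34158775-34159418 and chr16:34161279-34163986, and none over the promoter.

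Copies in the flanks bear on how their peaks can be read. In the list without a genotype, the peaks in CCNYL1B at chr16:34363093-34363646 and in CCNYL3 at chr16:35048182-35048735 were each 554 bp wide with a fold of 3.16 and −log10 p of 3.45. That fold and −log10 p recurred in the same list at sites of other width, such as chr9:60983394-60984350 and chr16:47349735-47350630. Equal fold and −log10 p alone thus do not mark copies. Reads from identical copies cannot be told apart, and the sources used here do not say how the authors placed them. The same holds for repeated sequence in the left stretches.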

How the data were processed

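The data were 3 deposited lists of broad H3K9me3 peaks. Reads were aligned with Bowtie2 and peaks called with MACS2 on GRCh38, per the submitters' processing notes (no versions there). The sources used here do not state calling options, controls, filters, the handling of reads from repeats or any pooling. The fold enrichment of a peak is a ratio computed by the authors' caller, and its −log10 p and −log10 q are the authors' deposited values. In the unassigned list the deposited −log10 q served only as a score for thresholds. No −log10 q lay below 1.00. The lists hold no read counts, so depth is unknown. Of the lists, 2 carry KD and EV in their names, and the remaining one was not assigned to a sample. Peaks on other sequences (805 in KD, 1699 in EV and 853 in the list without a genotype) were left out.

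Members were peaks with midpoints in the 3 windows. Covered length is that of merged peaks, and overlap needed 1 bp. Exact Clopper-Pearson 95% intervals were computed for shares with scipy 1.17.1, and number ratios have the interval of the corresponding binomial share. Interval functions (numpy 2.4.6, pandas 2.3.3) were tested on simulated data against bedtools 2.31.1. Genes, promoters and miRNAs came from RefSeq tables of GRCh38.p14, and no genome sequence was used here. Named peaks were the 3 widest, the 3 of highest fold and the 3 of highest −log10 p per list and window, the strongest without overlap, and those nearest the window edges. Named genes were the protein-coding ones with a peak and those most covered, and the promoters, copies and genes without a peak were chosen after their values were seen. The windows, members and lists were chosen with earlier results of these data known.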

Additional observations from a re-analysis of the deposited data

How the results depend on the processing

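No paired analysis was possible because the labels give no replicate numbers and each group is 1 library. The KD/EV number ratio of 1.29 turned to 0.490 at a −log10 q of at least 5, and it was 1.06 at a −log10 q of at least 2, 1.48 at a fold of at least 3, 1.69 with peaks merged within 3 kb, 1.64 with equal peak numbers in both lists and 1.42 without chromosome 1. Merging within 10 kb, chosen after seeing the data, gave 1.52. With equal numbers, the ratio was 0.965 outside the blocks and 1.32 in the other gene-free stretches. Those stretches gave 1.10 at a fold of at least 3, 1.12 merged within 3 kb and 1.42 merged within 10 kb. At a −log10 q of at least 2 and 5 they gave 0.718 and 0.456. A number ratio above 1 was thus not particular to the blocks under several settings. The covered ratio of 0.579 stayed below 1 under the 13 alternatives, at 0.158 for −log10 q of at least 5 and 0.523 to 0.842 otherwise. The blocks' share of covered length moved to 10.8% in KD without chromosome 1 and 10.2% without chromosome 16. In EV it was 21.8% at −log10 q of at least 5, 7.42% without chromosome 1 and 7.96% without chromosome 16. In the list without a genotype it was 28.7% at that threshold, 10.3% without chromosome 9 and 9.28% without chromosome 16. The share of KD members met by EV was 94.9% at −log10 q of at least 5, 91.9% at a fold of at least 3, 94.5% with equal numbers, 96.6% where 50% of the peak had to be covered and 24.4% with a reciprocal overlap of 50%. The share of EV members met by KD was 68.8% and 41.9% at −log10 q of at least 2 and 5, 77.9% at a fold of at least 3, 54.1% merged within 10 kb, 87.4% with equal numbers, 33.1% and 31.5% with 50% and reciprocal 50% overlap, and 69.9%, 70.4% and 78.7% without chromosome 1, 9 or 16. Without the flanks of chromosome 16, chosen after seeing the data, it was 79.2%. Shared bases made up 15.0% of the union at −log10 q of at least 5 and 83.9% merged within 10 kb. Reciprocal overlap also needs 50% of the partner peak to be covered. The cause of these shifts was not tested. Single libraries, unknown depth and unknown placing of repeat reads limit every value.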
